A study of Mus musculus with 18 samples.

Results

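The genes described here are 10 regulators of the cell cycle and of the p53 response, namely Wee1, Ccnd1, Ccng1, Ccng2, Cdkn1a, Mdm2, Gadd45a, Gadd45b, Btg2 and Myc. They were chosen by symbol, with earlier results of these data known, from the 14451 genes of the deposited liver table. Each symbol matched 1 row, and all 10 were among the 14449 genes that rose above the floor of the values in at least 1 liver and were therefore tested.

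A dividing cell passes gates at which cyclin-dependent kinases (CDKs) are switched on by cyclins and held back by inhibitors. p53 is a transcription factor that is stabilized by DNA damage and other stress, and it raises the expression of a CDK inhibitor, Cdkn1a, together with genes of DNA repair, of cell death and of its own negative control. Most hepatocytes of an adult liver do not divide. Wee1, a kinase that holds cells before mitosis, is the textbook link between the circadian clock and cell division in the regenerating liver, because the clock factors CLOCK and BMAL1 act on its promoter.

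Expression was measured by sequencing polyA RNA from whole livers of wild-type (WT) male mice, 8 to 9 weeks old and kept in 12 h of light and 12 h of darkness, with no treatment named in the labels. By the labels, the 6 groups differ only in zeitgeber time (ZT, hours after the lights come on), with 3 livers each at ZT1, ZT5 and ZT9 in the light and at ZT13, ZT17 and ZT21 in the dark. Each of the 18 livers came from another mouse, so no mouse was followed over time, and the sampling covers 1 day. The labels do not give the strain, and the methods of the study state that the mice with the best RNA of each group were sequenced.

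A value is the estimated read count of a gene plus 0.5 reads, expressed by the authors per 1000000 reads of a library size that they adjusted. It is not divided by gene length, so levels are compared between time points of 1 gene and not between genes. The libraries held from 10268168 to 23242842 estimated reads (median 12078875). Livers of a time point are given in the order of their label numbers, and the deepest library was the third liver of ZT5. The summed value of 6 hepatocyte markers lay between 70362 and 101047 in all livers, and none of the 6 was at the floor in any liver. The livers of ZT9, with sums from 70362 to 75388, lay below all others, of which the lowest had 76434. Alb alone had values from 50493 to 78544. In whole liver, fewer cells of a type and less RNA per cell cannot be told apart.

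Promoter sequence was taken from RefSeq (GRCm38.p6, 250 bases before to 50 bases after each annotated start), in which 7 of the 10 genes were matched. Wee1, Ccnd1 and Myc were not matched. The stretches below are shown because each holds a motif known for p53, for clock factors or for signalling through cyclic AMP. Whether the genes are regulated through these stretches was not tested. The matched motif is in capitals with 25 bases on each side. The Cdkn1a stretch is chr17:29090881-29090962 (plus strand), that of Ccng1 is chr11:40755437-40755496 (minus strand), that of Mdm2 is chr10:117710910-117710969 (minus strand), that of Gadd45b is chr10:80929881-80929936 (plus strand) and that of Btg2 is chr1:134079289-134079346 (minus strand). The first 3 show the p53 decamer, the 10-letter unit of a p53 response element, that of Gadd45b shows the E-box CACGTG, and that of Btg2 shows the cyclic AMP response element TGACGTCA.
Cdkn1a: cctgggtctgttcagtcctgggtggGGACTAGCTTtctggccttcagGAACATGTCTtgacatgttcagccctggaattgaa
Ccng1: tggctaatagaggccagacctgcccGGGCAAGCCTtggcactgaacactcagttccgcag
Mdm2: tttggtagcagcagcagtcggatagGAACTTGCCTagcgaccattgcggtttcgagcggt
Gadd45b: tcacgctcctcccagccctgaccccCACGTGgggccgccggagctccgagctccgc
Btg2: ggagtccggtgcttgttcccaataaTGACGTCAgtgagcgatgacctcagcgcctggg

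Both strands were searched. The p53 decamer was found in 4 of the 7 matched genes, namely Cdkn1a with 2 matches, Ccng1, Mdm2 and, as GGGCTAGCCC, Gadd45a, and in 8.36% of all 32851 promoters of the table. The E-box CACGTG was found in Gadd45b alone of the 7 and in 7.15% of all promoters. TGACGTCA was found in Btg2 alone and in 1.79% of all promoters, and its core TGACG, which lies within it, in Btg2 and Mdm2 and in 20.8% of all. The nuclear receptor motif AGGTCA was found in Btg2 alone and in 16.3% of all promoters, and the D-box TTATGTAA or TTACGTAA in none of the 7 and in 1.06% of all. Cdkn1a has 2 starts in the table, 2790 bases apart, and both decamers lie before the first of them, at 73 and 51 bases upstream. A match describes the letters only.

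The course over the day was asked of all genes by a cosine of 24 h, fitted with limma to log2(value + 1). The amplitude given below is the distance from the middle of the curve to its peak on that scale. The added 1 makes amplitudes smaller for genes with low values. With an adjusted *P*-value below 0.05 as the threshold, 6 of the 10 genes were called, against 35.3% of all genes tested. Wee1, Ccnd1 and Gadd45a had their fitted peak late in the light phase, and Cdkn1a, Ccng2 and Gadd45b had theirs in the dark phase. Ccng1, Mdm2, Myc and Btg2 were not called. The median amplitude of the 10 genes was 0.64 log2, and that of all genes tested was 0.16 log2. Because earlier results were known when the 10 were chosen, neither comparison with all genes is a test of the set.

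**Figure D1:**
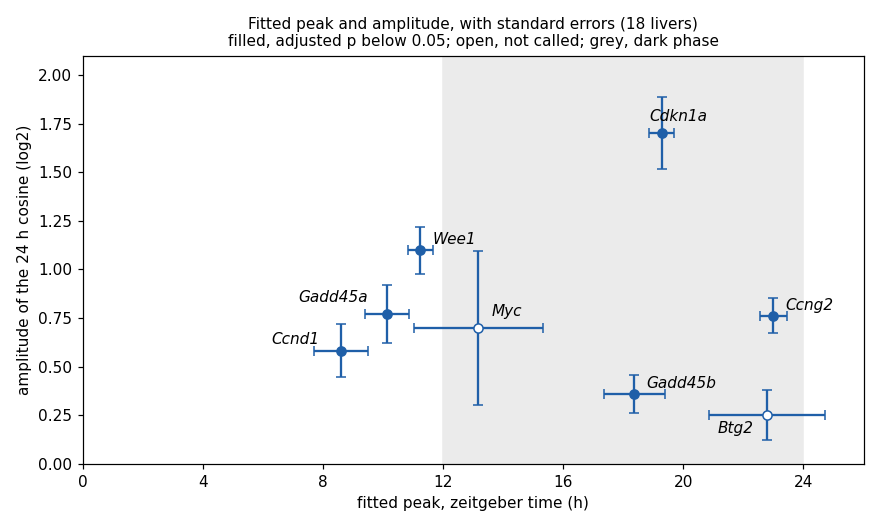
Fitted peak time (horizontal axis, ZT in h) and amplitude of the 24 h cosine (vertical axis, log2) with standard errors, for 8 of the 10 genes over 18 livers; Ccng1 and Mdm2, with amplitudes of 0.07 and 0.01 log2, are left out. Filled points were called by limma, and Cdkn1a lies highest with an amplitude of 1.7 at ZT19.3.

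Other tests called fewer of the genes. limma's *F* test, which assumes no shape of the curve and asks whether the 6 time points differ, called Wee1, Cdkn1a, Ccng2, Ccnd1 and Gadd45a, 5 of the 10 genes, against 26.3% of all genes. JTK, which compares ranks with cosine orders of 20 to 28 h, called 3 of the 10, against 14.1% of all genes. The version of JTK used here is conservative where time points have equal cosines. With these as 1 group it called 4 of the 10, Gadd45a added, and 3237 of all 14449 genes. MC, which combines JTK with the Lomb–Scargle periodogram, called 3 of the 10, against 18.3% of all genes. The plain cosine curve of CircaN, with an R-squared of at least 0.7 as its second criterion, called 3 of the 10, against 11.2% of all genes. The 3 genes of JTK, of MC and of CircaN were Wee1, Cdkn1a and Ccng2 each time. A 12 h term added to the 24 h curve was called in 1 of the 10 genes, Wee1, against 0.872% of all genes.

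**Figure D2:**
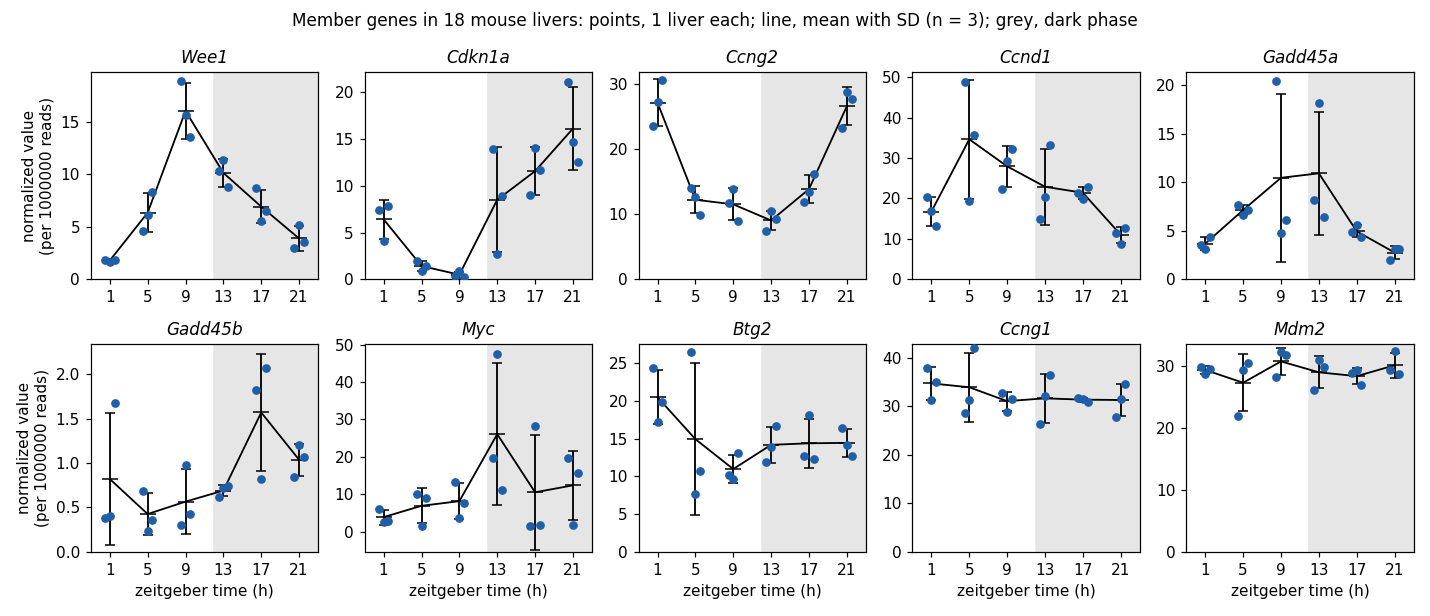
Values per 1000000 reads (vertical axes, each with its own range) of the 10 genes against ZT in h (horizontal axes). Points are single livers, lines join the means, bars are SD (n = 3) and grey marks the dark phase; Wee1, Cdkn1a and Ccng2 show the clearest separation between time points, and single livers carry the high values of Myc and Gadd45a.

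Wee1 encodes the kinase that keeps CDK1 inactive before mitosis (ENSMUSG00000031016, chromosome 7, 110122046 to 110143286, plus strand, GRCm38). In the light phase its values were 1.83, 1.68 and 1.86 at ZT1, 4.58, 6.16 and 8.26 at ZT5, and 18.9, 15.6 and 13.5 at ZT9. In the dark phase they were 10.3, 11.3 and 8.73 at ZT13, 8.68, 5.58 and 6.48 at ZT17, and 2.95, 5.18 and 3.54 at ZT21. All 3 livers of ZT9 lay above every other liver, and all 3 livers of ZT1 lay below every other liver. The mean went from 1.79 ± 0.0973 at ZT1 to 16.0 ± 2.68 at ZT9 (SD, n = 3 each), a ratio of 8.92. In the order of the means, ZT9, ZT13, ZT17, ZT5, ZT21 and ZT1, the livers of ZT17 and ZT5 overlapped, as did those of ZT5 and ZT21, and the other neighbours did not. Between 18 and 221 estimated reads stood behind each value.

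The fitted 24 h curve of Wee1 had an amplitude of 1.1 ± 0.12 log2 (SE) and a peak at ZT11.2 ± 0.417 (SE; limma, adjusted *P* = 1.01e-05). JTK gave a q-value of 0.00717 and MC one of 0.00179, and the cosine of CircaN had an R-squared of 0.771. Wee1 rose in both steps of the light phase, by 1.36 ± 0.20 log2 from ZT1 to ZT5 (SE; limma, adjusted *P* = 0.000844) and by 1.23 ± 0.20 log2 from ZT5 to ZT9 (SE; adjusted *P* = 0.00475). In the 4 later steps the differences lay between -0.78 and -0.50 log2, and none of them was called. The 12 h term of Wee1 had an amplitude of 0.40 log2 and a first peak at ZT7.74 (limma, adjusted *P* = 0.0466), and the call was lost with a pseudocount of 0.1 and without any 1 of 13 of the 18 livers. The genes most like Wee1 over the 18 livers were Lrp4 (r = 0.963), the clock gene Per3 (r = 0.950) and Usp2 (r = 0.946), a ubiquitin-specific protease. These r are Pearson's, on log2(value + 1), and describe livers that share library and depth.

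Ccnd1 encodes cyclin D1, which activates CDK4 and CDK6 in G1 (ENSMUSG00000070348, chromosome 7, 144929931 to 144939925, minus strand). Its values in the light phase were 20.2, 16.8 and 13.2 at ZT1, 48.7, 19.5 and 35.7 at ZT5, and 22.3, 29.3 and 32.2 at ZT9. For the dark phase they were 15, 20.5 and 33.3 at ZT13, 21.4, 19.9 and 22.9 at ZT17, and 11.6, 8.84 and 12.7 at ZT21. The 3 livers of ZT21 lay below all others, whereas the 3 livers of ZT5 spread over a wide range. The mean was 34.6 ± 14.6 at ZT5 and 11 ± 1.99 at ZT21 (SD, n = 3 each), a ratio of 3.14. In the order ZT5, ZT9, ZT13, ZT17, ZT1 and ZT21, only the last neighbours did not overlap.

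The 24 h curve of Ccnd1 had an amplitude of 0.58 ± 0.14 log2 and a peak at ZT8.61 ± 0.9 (SE; limma, adjusted *P* = 0.00956), and the *F* test over time points gave an adjusted *P* of 0.0134. JTK (q = 0.194) and MC (q = 0.280) did not call it, and none of its 6 steps was called, although that from ZT1 to ZT5 was called without the second liver of ZT5. Of the markers of other liver cells, limma's 24 h cosine called 3 of 6 for Kupffer cells, 3 of 6 for sinusoidal endothelium, 3 of 5 for bile duct cells, 1 of 6 for stellate cells, 1 of 3 for neutrophils, 0 of 4 for lymphocytes and 0 of 5 for red cell precursors, beside 3 of 6 for hepatocytes and 35.3% of all genes. The summed value of 6 Kupffer cell markers had its highest median, 214, at ZT9 (range 181 to 223) and its lowest, 132, at ZT21 (88.8 to 138). That of 6 markers of sinusoidal endothelium was highest at ZT5, with a median of 187 (173 to 221), and lowest at ZT1, with 134 (119 to 180), against 143 (93.6 to 147) at ZT21. The summed value of the 5 bile duct cell markers ran otherwise, with its lowest median, 36.1, at ZT5 and its highest, 48.3, at ZT17. The 12 markers of Kupffer cells and sinusoidal endothelium, called or not, had fitted peaks between ZT6.46 and ZT9.66. Those of the called ones lay between ZT6.46 and ZT8.52. None of the 12 was at the floor in any liver. The part of other liver cells in the course of Ccnd1 was not tested. The genes most like Ccnd1 were Zadh2 (r = 0.894), Clec4a3 (r = 0.857), a lectin of myeloid cells, and Sptssa (r = 0.845), a subunit of serine palmitoyltransferase. RSEM divides reads that match several genes, and the count of Ccnd1 held a part of a read in 18 of 18 livers.

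The cyclins G are known as targets of stress signalling and do not drive the cycle in the way of cyclin D1. Ccng2 encodes cyclin G2, which is raised in cells that leave the cycle and is a target of FOXO factors (ENSMUSG00000029385, chromosome 5, 93267257 to 93276231, plus strand). Its light phase values were 23.4, 27.2 and 30.5 at ZT1, 14, 12.7 and 9.93 at ZT5, and 11.7, 13.8 and 8.95 at ZT9. Its dark phase values were 7.42, 10.4 and 9.23 at ZT13, 11.9, 13.5 and 16.1 at ZT17, and 23.2, 28.7 and 27.6 at ZT21. The 6 livers of ZT21 and ZT1 lay above the 12 others with no overlap. Means were 27.1 ± 3.56 at ZT1 and 9.03 ± 1.52 at ZT13 (SD, n = 3 each), a ratio of 3. In the order ZT1, ZT21, ZT17, ZT5, ZT9 and ZT13, only ZT21 and ZT17 were neighbours without overlap.

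The 24 h curve of Ccng2 had an amplitude of 0.76 ± 0.09 log2 and a peak at ZT23.0 ± 0.447 (SE; limma, adjusted *P* = 2.04e-05). Its q-value was 0.0184 by JTK and 0.00437 by MC, and the R-squared of the CircaN cosine was 0.804, the highest of the 10 genes. Ccng2 fell by 1.09 ± 0.17 log2 from ZT1 to ZT5 (SE; limma, adjusted *P* = 0.00143) and rose by 0.90 ± 0.17 log2 from ZT17 to ZT21 (SE; adjusted *P* = 0.0183). The second of these calls was lost without the first liver of ZT17, the second of ZT21 or the third of ZT21. Most like Ccng2 were Loxl4 (r = 0.957), the clock gene Npas2 (r = 0.941) and Ypel2 (r = 0.936), whose fitted peaks lay between ZT22.6 and ZT22.9. Over the same livers, Ccng2 and Wee1 had r = -0.804.

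Ccng1 encodes cyclin G1, a target of p53 that acts back on the MDM2 loop (ENSMUSG00000020326, chromosome 11, 40748552 to 40755311, minus strand). At ZT1, ZT5 and ZT9 its livers gave 37.9, 31.2 and 35.1, then 28.6, 31.2 and 42.0, and then 32.7, 28.9 and 31.6. At ZT13, ZT17 and ZT21 they gave 26.4, 32.1 and 36.4, then 31.7, 31.5 and 30.9, and then 27.9, 31.5 and 34.6. Livers of all time points overlapped in one band, and the highest mean, 34.8 ± 3.35 at ZT1, was 1.12 times the lowest, 31.1 ± 1.97 at ZT9 (SD, n = 3 each). The 24 h amplitude was 0.07 ± 0.05 log2 (SE; limma, adjusted *P* = 0.580), and the steps lay between -0.11 and 0.15 log2 with an SE of 0.14. The genes most like it, Pole, Rmdn2 and Entpd5, reached r = 0.778, 0.753 and 0.744.

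Cdkn1a encodes p21, the CDK inhibitor through which p53 holds cells in G1 (ENSMUSG00000023067, chromosome 17, 29090976 to 29100727, plus strand). Its values were 7.37, 4.05 and 7.79 at ZT1, 1.99, 0.909 and 1.39 at ZT5, and 0.383, 0.885 and 0.234 at ZT9. After the lights went off they were 13.9, 2.70 and 8.90 at ZT13, 8.95, 14.1 and 11.6 at ZT17, and 21.1, 14.6 and 12.6 at ZT21. The 6 livers of ZT5 and ZT9 lay below the 12 others, with the second liver of ZT13 next above them. Its mean of 0.501 ± 0.341 at ZT9 rested on 2 to 9 estimated reads per liver, and the mean of 16.1 ± 4.45 at ZT21 on 147 to 261 (SD, n = 3 each). The ratio of these means was 32.1, the largest of the 10 genes, and it was 52.1 without the second liver of ZT9. In the order ZT21, ZT17, ZT13, ZT1, ZT5 and ZT9, the first 4 overlapped each with the next, ZT1 and ZT5 did not, and the nearest livers of ZT5 and ZT9 had 0.909 and 0.885.

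The 24 h curve of Cdkn1a had an amplitude of 1.7 ± 0.18 log2 and a peak at ZT19.3 ± 0.414 (SE; limma, adjusted *P* = 9.27e-06). The q-values were 0.00613 by JTK and 0.00144 by MC, with an R-squared of 0.772 for the CircaN cosine. Cdkn1a fell by 1.59 ± 0.39 log2 from ZT1 to ZT5 (SE; limma, adjusted *P* = 0.0267) and rose by 2.47 ± 0.39 log2 from ZT9 to ZT13 (SE; adjusted *P* = 0.00117). The fall from ZT1 to ZT5 was not called without the first or the third liver of ZT1, or without the second or the third liver of ZT5. Since 1 was added to each value before the log was taken, these differences understate the change at the low levels of ZT5 and ZT9. Cdkn1a was most like Klhdc8a (r = 0.941), Slc45a3 (r = 0.941) and Ankrd46 (r = 0.921), with fitted peaks from ZT18.3 to ZT19.4. The p53 decamers printed above lie before its first start, and the values of the gene do not tell the transcripts of its 2 starts apart.

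Mdm2 encodes the ubiquitin ligase that marks p53 for degradation and is itself a p53 target (ENSMUSG00000020184, chromosome 10, 117688875 to 117710758, minus strand). In the light its livers gave 29.9, 28.7 and 29.5 at ZT1, 22, 29.4 and 30.5 at ZT5, and 28.2, 32.2 and 31.8 at ZT9. In the dark they gave 26.1, 31 and 29.9 at ZT13, 28.9, 29.3 and 26.9 at ZT17, and 29.3, 32.4 and 28.7 at ZT21. Apart from the first liver of ZT5, all lay within a narrow band. The highest mean, 30.7 ± 2.20 at ZT9, was 1.13 times the lowest, 27.3 ± 4.62 at ZT5 (SD, n = 3 each), and the livers of these groups overlapped. The 24 h amplitude was 0.01 ± 0.05 log2 (SE; limma, adjusted *P* = 0.969), and the largest of the 6 steps was 0.18 ± 0.11 log2. Eif2s3y, Dmxl2 and Apob were the genes most like it, with r = 0.831, 0.787 and 0.775.

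The Gadd45 proteins take part in stress signalling, in arrest before mitosis and in DNA repair. Gadd45a (ENSMUSG00000036390, chromosome 6, 67035096 to 67037457, minus strand) is a p53 target. Its light phase values were 3.58, 3.09 and 4.39 at ZT1, 7.63, 6.62 and 7.19 at ZT5, and 20.4, 4.82 and 6.13 at ZT9. Its dark phase values were 8.15, 18.2 and 6.47 at ZT13, 4.84, 5.63 and 4.38 at ZT17, and 2.02, 3.14 and 3.13 at ZT21. The first liver of ZT9 and the second of ZT13 stood apart, and the other 16 livers lay between 2.02 and 8.15. Means were 10.9 ± 6.32 at ZT13 and 2.77 ± 0.643 at ZT21 (SD, n = 3 each), a ratio of 3.95, while livers of ZT9 alone differed 4.24 times. In the order ZT13, ZT9, ZT5, ZT17, ZT1 and ZT21, only ZT5 and ZT17 were neighbours without overlap.

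The 24 h curve of Gadd45a had an amplitude of 0.77 ± 0.15 log2 and a peak at ZT10.1 ± 0.742 (SE; limma, adjusted *P* = 0.00230). That adjusted *P* stayed between 0.000485 and 0.00707 when any single liver was left out. JTK gave a q-value of 0.0679, MC one of 0.113 and the CircaN cosine an R-squared of 0.420, and none of its 6 steps was called. The *F* test over time points (adjusted *P* = 0.0298) lost its call without the second liver of ZT1 or without any 1 of the 3 livers of ZT21. Its nearest genes were Ptch1 (r = 0.886), Sec23a (r = 0.854) and Naaladl2 (r = 0.854). Its estimated counts held a part of a read in 18 of 18 livers, since RSEM shares out reads that match other genes too. Counts with a part of a read also stood in 13 of 18 livers for Mdm2 and in 12 of 18 for Ccng1.

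Gadd45b (ENSMUSG00000015312, chromosome 10, 80930073 to 80932204, plus strand) is a relative of Gadd45a that responds to growth factors and cytokines. Gadd45b has the E-box printed above 185 bases before its RefSeq start, which differs from the gene start given here. Its values were 0.381, 0.409 and 1.67 at ZT1, 0.689, 0.236 and 0.354 at ZT5, and 0.298, 0.978 and 0.422 at ZT9. They were 0.615, 0.719 and 0.738 at ZT13, 1.82, 0.822 and 2.07 at ZT17, and 0.848, 1.2 and 1.06 at ZT21. Between 3 and 30 estimated reads stood behind each value and the third liver of ZT1 reached the level of ZT17. The mean was 1.57 ± 0.660 at ZT17 and 0.426 ± 0.235 at ZT5 (SD, n = 3 each), a ratio of 3.68. At such low values the 1 added before the log makes the amplitude understate this change. The 24 h curve had an amplitude of 0.36 ± 0.10 log2 and a peak at ZT18.4 ± 1.02 (SE; limma, adjusted *P* = 0.0209). This call was lost without the first liver of ZT17 (adjusted *P* = 0.0530) or the third of ZT17 (adjusted *P* = 0.0532), and the *F* test over time points did not make it (adjusted *P* = 0.114), except without the third liver of ZT1 or the second of ZT17. Its nearest genes were A230056P14Rik (r = 0.830), Snrpa (r = 0.829) and Atp2b2 (r = 0.800).

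Btg2 encodes an antiproliferative protein that is a p53 target and also an immediate early gene (ENSMUSG00000020423, chromosome 1, 134075170 to 134079120, minus strand). Its livers gave 24.3, 17.2 and 19.8 at ZT1, 26.4, 7.71 and 10.7 at ZT5, and 10.2, 9.64 and 13.1 at ZT9. They gave 11.9, 13.9 and 16.7 at ZT13, 12.7, 18.1 and 12.2 at ZT17, and 16.4, 14.2 and 12.7 at ZT21. The 3 livers of ZT1 were among the 5 highest, together with the first liver of ZT5 and the second of ZT17. Means were 20.5 ± 3.59 at ZT1 and 11 ± 1.84 at ZT9 (SD, n = 3 each), a ratio of 1.87. The groups of these means did not overlap, but neither the 24 h curve (amplitude 0.25 ± 0.13 log2, SE; limma, adjusted *P* = 0.264) nor the *F* test (adjusted *P* = 0.330) was called. Without the first liver of ZT5, both the *F* test and the step from ZT1 to ZT5 called Btg2. Of 9 other immediate early genes, 6 also had their highest mean at ZT1, among them Egr1 with 107 and Zfp36 with 82.0, while Junb was highest at ZT5, Ier3 at ZT9 and Atf3 at ZT13. At ZT1 the summed value of the 9 lay between 269 and 332 and in all other livers between 92.4 and 186. In the first liver of ZT5, where Btg2 was highest, this sum was 140, below those of the other livers of ZT5, 161 and 151. Cwf19l1 (r = 0.833), Svil (r = 0.778) and Prdx3 (r = 0.764) were the genes most like Btg2.

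Myc encodes the transcription factor that drives growth and entry into the cycle (ENSMUSG00000022346, chromosome 15, 61985391 to 61990374, plus strand). Its values were 6.13, 2.5 and 2.92 at ZT1, 10.1, 1.45 and 9.10 at ZT5, and 13.2, 3.49 and 7.64 at ZT9. In the dark phase livers gave 19.5, 47.5 and 11.2 at ZT13, 1.47, 28.3 and 1.66 at ZT17, and 19.6, 1.86 and 15.6 at ZT21. The livers of ZT17 fell into 1 high and 2 low values, 19.2 times apart at most, and those of ZT21 into 2 high and 1 low. No other gene of the 10 varied as much between mice of the same time point. The coefficient of variation (CV) of Myc was 0.793 between replicates and 0.691 between time points, whereas for Wee1 it was 0.195 and 0.670. The mean of 26.1 ± 19 at ZT13 was 6.77 times that of 3.85 ± 1.98 at ZT1 (SD, n = 3 each), and the livers of these groups did not overlap. Without the second liver of ZT13 the ratio was 3.99. The 24 h curve had an amplitude of 0.70 ± 0.39 log2 and was not called (SE; limma, adjusted *P* = 0.337), nor was any step. The genes most like Myc were Phlda1 (r = 0.924), with values from 27.2 to 219, Gm14391 (r = 0.885) and Hhex (r = 0.884), and limma called none of these for the 24 h curve. The highest Myc value was in a liver whose immediate early genes summed to 103, and those of the 17 others summed to between 92.4 and 332.

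The steps between successive time points place the changes in the day. From ZT1 to ZT5, 3 of the 10 genes were called, against 4.89% of all genes, with Wee1 higher and Cdkn1a and Ccng2 lower at ZT5. From ZT5 to ZT9, 1 of the 10 was called, Wee1, against 1.54% of all genes. From ZT9 to ZT13, across the change from light to dark, 1 of the 10 was called, Cdkn1a, against 9.23% of all genes. Wee1 was called too, as lower at ZT13, when the values were rescaled to equal totals or the first liver of ZT5 was left out, and with all livers its adjusted *P* was 0.0670. From ZT13 to ZT17, limma called 0 of the 10, against 1.2% of all genes. From ZT17 to ZT21, 1 of the 10 was called, Ccng2, against 1.51% of all genes. From ZT21 to ZT1, limma called 0 of the 10, against 0.131% of all genes. The 6 calls among 60 steps thus belonged to 3 genes. Before adjustment, limma's *P*-value was below 0.05 for 4, 1, 2, 5, 3 and 2 of the 10 genes in the 6 steps in turn. No share of all genes at this unadjusted threshold is given, so these counts have no baseline.

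**Figure D3:**
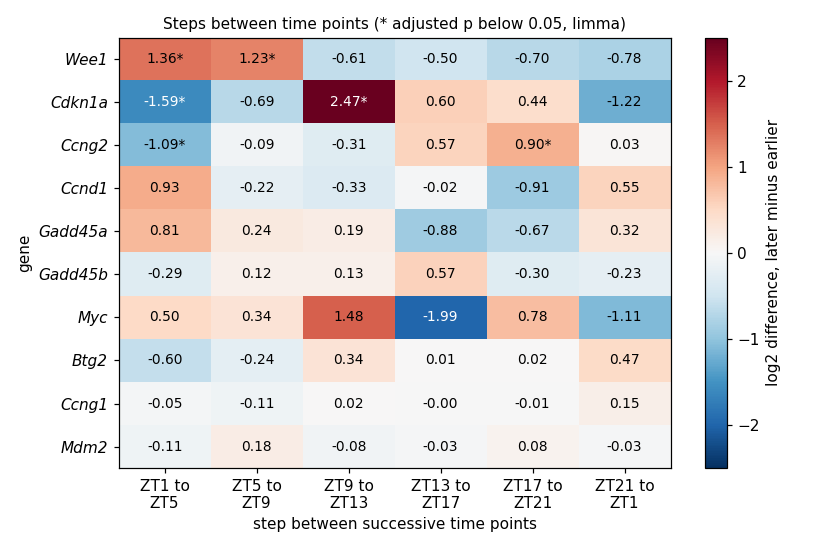
Log2 differences of the 10 genes (rows) over the 6 steps between successive time points (columns), later minus earlier, in colour and as numbers; a star marks an adjusted *P*-value below 0.05 by limma. The 6 stars belong to Wee1, Cdkn1a and Ccng2, and the largest difference is the rise of Cdkn1a by 2.47 from ZT9 to ZT13.

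Other genes of the p53 pathway were taken from a list of 29 symbols for 28 genes, and all 28 genes were measured. Cop1 and Rfwd2 name the same gene, which was measured as Rfwd2. limma's 24 h cosine called 12 of the 28, or 42.9%, against 35.3% of all genes, and their median amplitude was 0.20 log2 against 0.16 log2. Of the 12, 6 had their peak in the light and 6 in the dark. Ddit4, which restrains mTORC1 under stress, had an amplitude of 0.95 ± 0.09 log2 and a peak at ZT19.2 (SE; adjusted *P* = 2.86e-06), with 10.4 ± 1.17 at ZT21 and 2.35 ± 0.0405 at ZT5 (SD, n = 3 each). Its fitted peak lay beside that of Cdkn1a. Fas, a death receptor, peaked at ZT19.5 with an amplitude of 0.36 ± 0.05 log2 (SE; adjusted *P* = 0.000238). Ppm1d, a phosphatase that ends p53 signalling, peaked at ZT2.76 with 0.34 ± 0.05 log2 (adjusted *P* = 0.000277), and Trp53inp1, a cofactor of p53 in stress, at ZT0.234 with 0.66 ± 0.11 log2 (adjusted *P* = 0.000485). Trp53 itself, named after its values were seen, had an amplitude of 0.27 ± 0.06 log2 and a peak at ZT23.6 (SE; limma, adjusted *P* = 0.00496). The peaks of these 5 named genes lay between ZT19.2 and ZT2.76, whereas others of the 12 peaked elsewhere, such as Pmaip1 at ZT8.20 and Tigar at ZT14.7, also named after their values were seen.

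**Figure D4:**
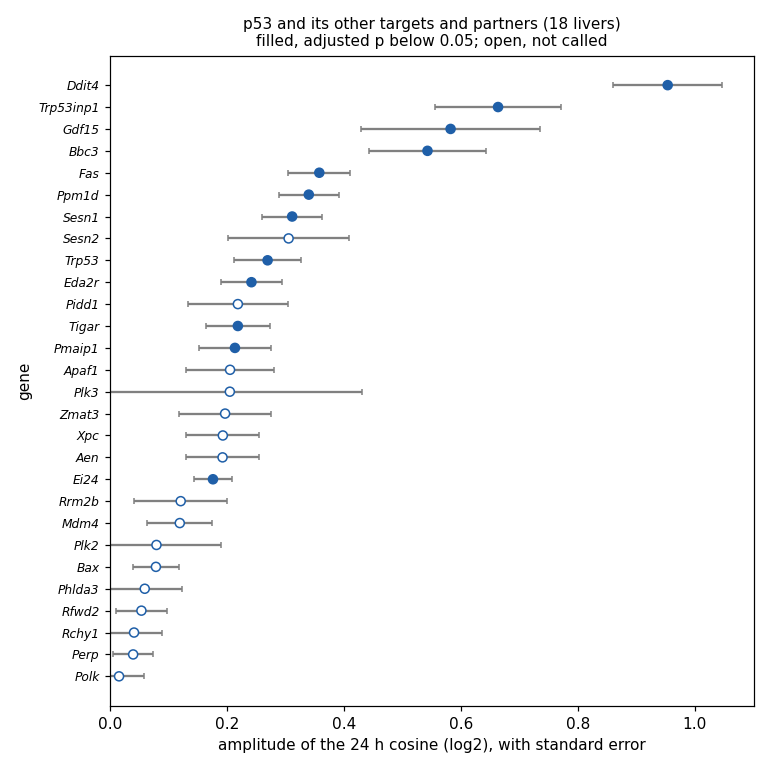
Amplitude of the 24 h cosine on the log2 scale (horizontal axis) with standard error over 18 livers for p53 and 27 other targets and partners (rows). Filled points are the 12 called by limma, and Ddit4 has the largest amplitude, 0.95.

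The other lists gave the surroundings of the cycle genes, each count again by limma's 24 h cosine, which called 35.3% of all genes, with 2634 of 5103 peaks in the light. Of 18 cyclins, kinases, pocket proteins and E2F factors of G1 and S phase, 5 were called, 27.8%, and 4 of these peaked in the light. They included Ccne1, cyclin E1, with a peak at ZT8.96 and values of 3.53 ± 0.448 at ZT9 and 0.392 ± 0.150 at ZT1 (SD, n = 3 each; adjusted *P* = 0.000214), and Rbl2, Cdk6 and Ccnd3 with amplitudes of 0.31, 0.26 and 0.23 log2. Of 4 measured CDK inhibitors other than Cdkn1a, limma called 0 for the 24 h cosine, with amplitudes up to 0.20 ± 0.09 log2 in Cdkn2c (SE; adjusted *P* = 0.186) beside 1.7 log2 for Cdkn1a. Of 12 measured genes of G2 and M phase, 2 were called, Cdc25b and Chek2, and 8 of the 12 had a mean value below 1. Of 11 markers of replication and proliferation, 3 were called, Mcm7, Mcm6 and Tyms, with amplitudes of 0.31, 0.37 and 0.20 log2. The summed value of the 11 lay between 64.6 and 79.2 in all livers. Pcna, with values from 23.5 to 29.9, weighed most in this sum. Some single markers varied more between livers, such as Mki67 from 1.29 to 5.80 and Mcm2 from 0.855 to 5.80. The amplitudes of Cdc25b and Chek2 were 0.29 and 0.27 log2, beside 1.1 log2 for Wee1. With 1 added before the log, amplitudes of genes at such low levels are understated. The means of Cdc25b were 1.25 ± 0.588 at ZT5 and 0.389 ± 0.163 at ZT21 (SD, n = 3 each).

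Among 6 relatives and partners of the Gadd45 and BTG genes, 3 were called, where 35.3% of all genes were. Btg1, the closest relative of Btg2, had an amplitude of 0.69 ± 0.10 log2 and a peak at ZT22.4 (SE; limma, adjusted *P* = 0.000144), and Gadd45gip1 and Tob2 had amplitudes of 0.16 and 0.48 log2. Among 8 measured partners and relatives of MYC, 3 were called, with amplitudes of 0.27 log2 for Mlx, 0.31 log2 for Mxd1 and 0.18 log2 for Max. Of 9 immediate early genes, 3 were called, Junb, Egr1 and Zfp36, and all 3 peaked between ZT1.11 and ZT4.14. As a reference, 14 of 15 clock genes were called, with a median amplitude of 1.48 log2. The amplitude of Cdkn1a lay above that median, and those of Wee1 and the other members lay below it. Nr1d1, Nr1d2 and Per2 were the clock genes with the lowest *P*-values, with peaks at ZT6.20, ZT8.29 and ZT13.9.

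Whether the genes varied together between mice of the same time point was asked of the 45 pairs, on deviations from the time point means over 18 livers, with an exact permutation test (two-sided) that reorders livers within time points. By Pearson's r, 0 of the 45 pairs had an adjusted *P*-value below 0.05, and 0 had an unadjusted one below 0.05. The lowest was that of Ccnd1 and Btg2, with Pearson's r = 0.675 and Spearman's rho = 0.406 (exact permutation *P* = 0.0533 and 0.200, adjusted *P* = 0.734 and 0.742), and r was 0.532 without the 2 livers farthest from the median of Ccnd1. Myc and Gadd45a, whose values were high together in the second liver of ZT13, had r = 0.393 and rho = 0.383 (exact permutation *P* = 0.0584 and 0.142, adjusted *P* = 0.734 and 0.742). By Spearman's rho, Ccng2 and Gadd45b had the lowest unadjusted value (rho = 0.593, exact permutation *P* = 0.0349, adjusted *P* = 0.742, with r = 0.523).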

How the data were processed

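The study measured polyA RNA of 18 mouse livers by sequencing. After adapter removal with Cutadapt, the authors assigned reads to the Ensembl transcripts of GRCm38 with RSEM (1.2.20 per the submitters' processing notes), which yields estimated counts, and limma was their tool for normalization. The values they deposited are a signal on a linear scale, with 0.5 reads added to each estimated count and the sum given per 1000000 reads of an adjusted library size. Taking the floor of each library as 0 reads gave the estimated reads back, and 99.9% of them were multiples of 0.01 reads, so tests for whole counts were not used.

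Here, log2(value + 1) of 14449 genes was fitted with limma 3.58.1 (R 4.3.3), with no filter on low values beyond the floor, by a 24 h cosine, by 24 h and 12 h terms together, and by 1 mean per time point (*F* test and 6 steps). JTK, MC and the plain cosine of CircaN (period 20 to 28 h) were written again in Python 3.11.15 (pandas 2.3.3, numpy 2.4.6 and scipy 1.17.1). The other curves of CircaN were not fitted, because the methods do not state their constants. All adjusted *P*-values and q-values are Benjamini–Hochberg values over all genes, or over the 45 pairs for the covariation between mice, with a threshold of 0.05. A first version of JTK put time points with equal cosines in the order of time. After the first counts had been seen it was replaced by one in which such pairs add nothing. The first version stands among the alternatives, added once results were known. The *P*-values of the version used come from the null of 6 groups with no equal cosines. They are therefore larger than under a matching null, and MC takes them over. The scripts were tested on simulated data.

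The genes and lists were chosen with earlier results of these data known. The named genes are the 10, the 3 others with the highest r to each among genes with a mean of at least 1, and up to 4 genes of each list with the lowest 24 h *P*-value. Of these, 1 gene is not reported here. Coordinates are from GENCODE release M21 (GRCm38), and promoters from RefSeq (GRCm38.p6). The labels do not say more of the replicates than that they are livers of separate mice, and the tests took these livers as the replicates. Alternatives covered the pseudocount, a filter on low values, the scaling, the prior variance, the handling of equal cosines, the log scale, a period held at 24 h and leaving out each liver.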

Additional observations from a re-analysis of the deposited data

How the results depend on the processing

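Of 504 values computed under alternatives, 483 kept their side of the threshold or, for counts, stayed within 1.5 times, and 21 did not. A count could stay within this limit while the genes behind it changed. The cause of the changes was not tested. The count of genes with a 12 h term was 1, and 0 with a pseudocount of 0.1, and it lay between 0 and 1 when single livers were left out. The count for the step from ZT9 to ZT13 was 1, and 2 after rescaling to equal totals, and lay between 1 and 2 without single livers. That for the step from ZT17 to ZT21 was 1, and lay between 0 and 1 without single livers. The 24 h call of Gadd45b was lost without the first or the third liver of ZT17 (adjusted *P* = 0.0530 and 0.0532, limma), and with a filter on a mean of at least 1 the gene was not tested, which left 5 of the 10 called. JTK called 4 of the 10, Gadd45a added, with equal cosines as 1 group or, chosen after the data were seen, in the order of time, and MC 4 in the latter case and on log2 values.

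Over all genes, JTK called 2039, and 3237 with equal cosines as 1 group or 3079 with these in the order of time (chosen after the data were seen). limma's 12 h term called 126, and 76 with a pseudocount of 0.1. With a trend in limma's prior variance, the steps called 334 in place of 222 (ZT5 to ZT9), 300 in place of 174 (ZT13 to ZT17), 333 in place of 218 (ZT17 to ZT21) and 29 in place of 19 (ZT21 to ZT1). Without single livers, counts fell as low as 1266 for JTK, 32 for the 12 h term and, for the 6 steps in turn, 352, 79, 701, 49, 49 and 9, against 706, 222, 1334, 174, 218 and 19 with all livers. Leaving livers out of the ratios of the highest to the lowest mean was added after the data were seen, and it moved that of Cdkn1a from 32.1 to 52.1 and that of Myc from 6.77 to 3.99, each by over 1.5 times, and no other. With 2 to 9 estimated reads for Cdkn1a at ZT9 and 3 to 30 for Gadd45b, counting error limits these levels. No paired analysis was possible because each mouse gave 1 liver and the labels pair no livers across time points.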
